A study of Mus musculus with 8 samples.

Results

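CDK inhibitors and D-type cyclins are among the genes that set whether a cell passes from G1 into S phase, and 10 of them were examined in mouse molars lacking Jagged1 in the epithelium. The members were the rows of the count files whose Ensembl identifiers carry the symbols Cdkn1a, Cdkn1b, Cdkn1c, Cdkn2a, Cdkn2b, Cdkn2c, Cdkn2d, Ccnd1, Ccnd2 and Ccnd3, so 10 of 43629 listed genes. A total of 9 members passed the filter on low counts, among 17129 genes that were tested. The member left out was Cdkn2a.

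RNA was sequenced from the lower first molars of 8 mouse embryos at E18.5, late in gestation. The 4 Control embryos (J3, J5, J6 and J7) were littermates that the labels give as Jagged1 fl/fl, with no Cre named, and that the study's methods call WT. The 4 Mutant embryos (K14J26, K14J28, K14J29 and K14J30) were K14Cre;Jagged1fl/fl, so by the labels both groups carried the floxed alleles and the Mutant group also carried Cre under the keratin 14 promoter. That promoter is active in epithelium, and the mesenchyme of the same molars kept Jagged1. Each library pooled the left and right molar of 1 embryo, and neither sex nor litter is given for single embryos. The libraries held 17327224 to 29792467 counts, the lowest being Control J3 and the highest Mutant K14J29. Levels are given as CPM, counts divided by a library size that was adjusted for composition. In whole molars, fewer cells of a type and less RNA per cell cannot be told apart.

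D-type cyclins bind CDK4 and CDK6, and the active pair phosphorylates the retinoblastoma protein, which then releases E2F factors to start S phase. INK4 inhibitors bind CDK4 and CDK6 and block their pairing with cyclin D, while Cip/Kip inhibitors bind a wider range of cyclin and CDK pairs. In the tooth, p21, the product of Cdkn1a, is a known mark of the non-dividing enamel knot, the epithelial signalling centre that directs cusp formation, and ameloblasts and odontoblasts leave the cell cycle as they differentiate.

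The targeted gene was examined first as a check of the group labels. Jag1 stood at 95.2, 103, 104 and 99.9 CPM in Control J3, J5, J6 and J7, and at 34.0, 39.0, 46.0 and 57.1 CPM in Mutant K14J26, K14J28, K14J29 and K14J30. Every Mutant value lay below every Control value, and the log2 fold change of Jag1 was -1.19 ± 0.14 (SE, n = 4 and 4; edgeR quasi-likelihood test, adjusted p = 0.00517).

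Of the 9 tested members, 1 was higher in the Mutant molars (Cdkn1a) and 1 was lower (Ccnd3) at an adjusted p under 0.05. Among all tested genes, 9.52% were called higher and 6.61% lower by the same rule, so 1 of 9 in each direction is near the background and is not a result about the members as a list. The median log2 fold change of the 9 was 0.01, beside 0.01 over all tested genes. The groups did not overlap for 3 members, Cdkn1a, Cdkn2c and Ccnd3, where 24.2% of all tested genes showed no overlap in either direction.

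**Figure D1:**
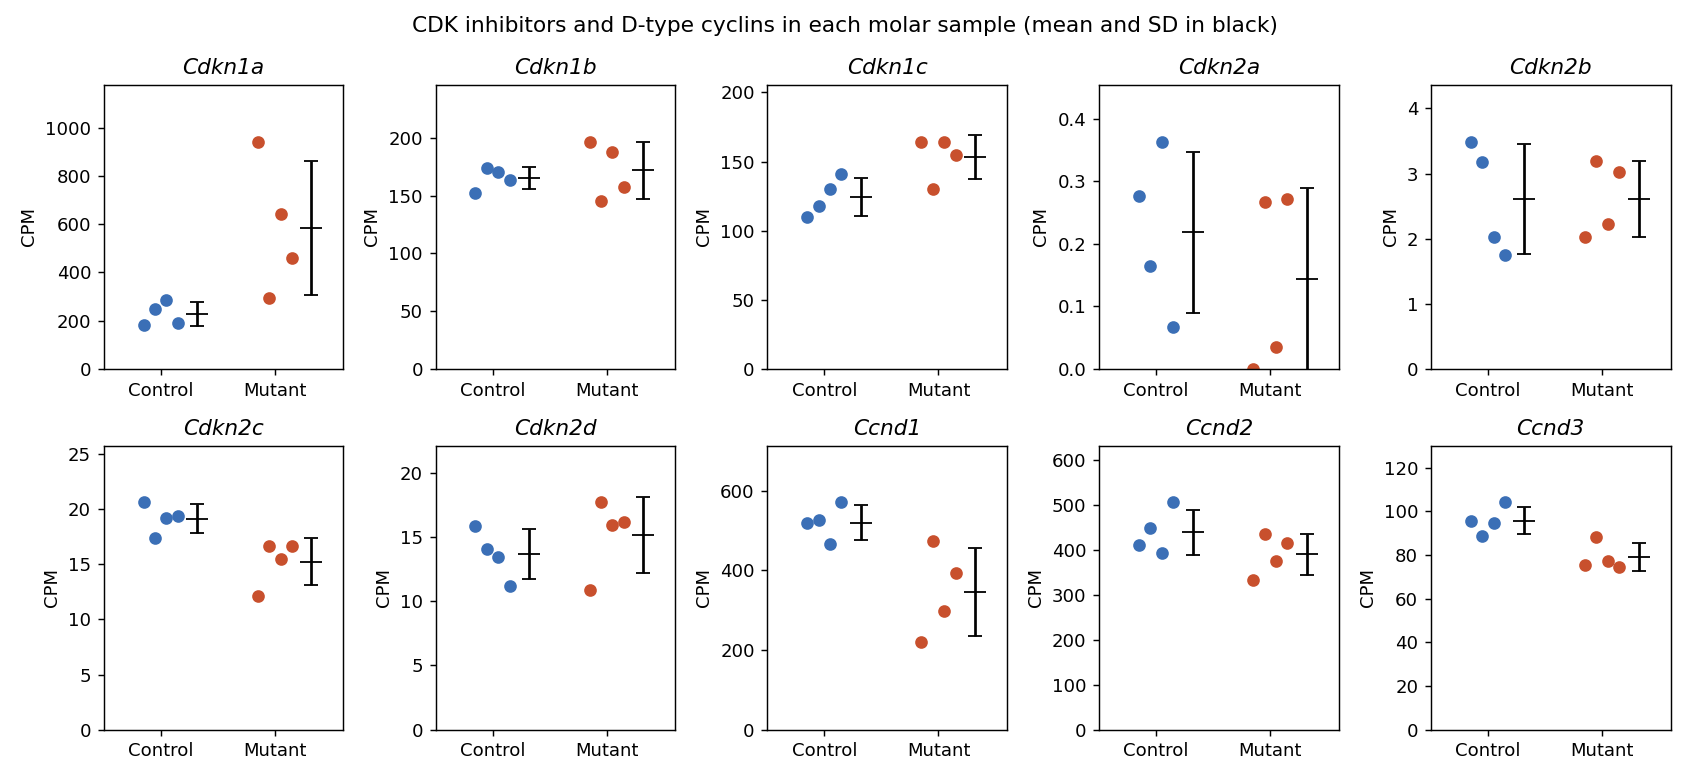
Level of each of the 10 members in each molar sample, as CPM on a linear axis that starts at 0 and differs between panels. Blue points are the 4 Control embryos, red points the 4 Mutant embryos, in the order J3, J5, J6, J7 and K14J26, K14J28, K14J29, K14J30, and black marks give the mean and SD. Mutant values of Cdkn1a run from 295 to 942 CPM, and Control values from 184 to 287 CPM.

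The Cip/Kip inhibitors come first. Cdkn1a encodes p21, which binds cyclin and CDK pairs and PCNA and is a classical target of p53. The gene lies on chr17:29090976-29100727 of GRCm38, on the plus strand (ENSMUSG00000023067). Its level was 184, 250, 287 and 189 CPM in Control J3, J5, J6 and J7, and 942, 295, 643 and 461 CPM in Mutant K14J26, K14J28, K14J29 and K14J30. The groups did not overlap, but the lowest Mutant library, K14J28, lay just above the highest Control library, J6. K14J26 stood highest by a wide margin, and the Mutant SD of 277 CPM exceeded the Control SD of 49.9 CPM. The mean rose from 227 CPM in Control to 585 CPM in Mutant molars, and the log2 fold change was 1.36 ± 0.32 (SE, n = 4 and 4; edgeR, adjusted p = 0.0247), which exceeds the change of 98% of tested genes. Without Control J3, J5 or J7, or Mutant K14J29, the adjusted p was 0.0751, 0.0605, 0.0796 and 0.072, and the log2 fold change stayed between 1.27 and 1.40. Without K14J26 the log2 fold change was 1.04 (adjusted p = 0.0203), and without K14J28 it was 1.58 (adjusted p = 0.0058).

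The promoter windows of Cdkn1a, the member with the largest change, are shown because transcription can start at either of them. They are taken from RefSeq (GRCm38.p6), run from 250 bases before to 50 bases after a start site, and are read on the plus strand. Such windows were given for 7 of the 10 members, not for Ccnd1, Ccnd2 or Cdkn1c. The 6 motifs searched on both strands were TGGGAA (RBPJ, the Notch effector), CTTTGA (TCF/LEF), GGGCGG (Sp family), TTTCCCGC and TTTGGCGC (E2F) and TGTTTAC (FOXO). Capitals mark the matches.
Cdkn1a upstream start, chr17:29090729-29091028: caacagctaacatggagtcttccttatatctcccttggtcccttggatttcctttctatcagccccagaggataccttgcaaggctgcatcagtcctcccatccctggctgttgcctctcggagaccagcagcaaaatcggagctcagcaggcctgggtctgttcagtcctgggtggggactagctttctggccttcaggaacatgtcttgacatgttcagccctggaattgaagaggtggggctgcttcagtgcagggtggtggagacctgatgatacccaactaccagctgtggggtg
Cdkn1a downstream start, chr17:29093519-29093818: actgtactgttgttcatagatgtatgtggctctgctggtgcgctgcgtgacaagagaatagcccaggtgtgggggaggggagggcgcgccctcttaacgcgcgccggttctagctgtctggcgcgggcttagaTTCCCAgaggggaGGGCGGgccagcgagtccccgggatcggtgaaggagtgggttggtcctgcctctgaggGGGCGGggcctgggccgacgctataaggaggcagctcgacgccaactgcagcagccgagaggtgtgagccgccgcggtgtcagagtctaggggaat
The downstream window held 1 match to TGGGAA and 2 to GGGCGG, and the upstream window held 0 of the 6 motifs searched. Among 32851 promoter windows of this length, 25.6% held TGGGAA and 35.7% held GGGCGG, while 16% held CTTTGA, 1.07% TTTCCCGC, 0.514% TTTGGCGC and 3.65% TGTTTAC. The annotation places AC167363.2, a gene on the opposite strand that has no row in the count files used here, across the downstream start. Without strand, reads from it and from Cdkn1a cannot be told apart. A match is a description of the letters, and gene-level counts do not say which start was used.

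Cdkn1c encodes p57, an imprinted inhibitor expressed from the maternal allele. Control J3, J5, J6 and J7 gave 110, 118, 130 and 141 CPM, and Mutant K14J26, K14J28, K14J29 and K14J30 gave 164, 130, 164 and 155 CPM. The groups overlapped through K14J28. The log2 fold change of Cdkn1c was 0.30 ± 0.10 (SE, n = 4 and 4; adjusted p = 0.0688), short of the threshold. With the DESeq2 test the adjusted p was 0.0451, and without K14J28 it was 0.0201. Cdkn1b encodes p27, which holds many resting cells out of the cycle. Its levels of 152 to 174 CPM in Control and 145 to 197 CPM in Mutant libraries overlapped, with a log2 fold change of 0.06 ± 0.10 (SE, n = 4 and 4; adjusted p = 0.723). The sign of this small value turned to -0.06 when libraries were scaled by their size only.

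**Figure D2:**
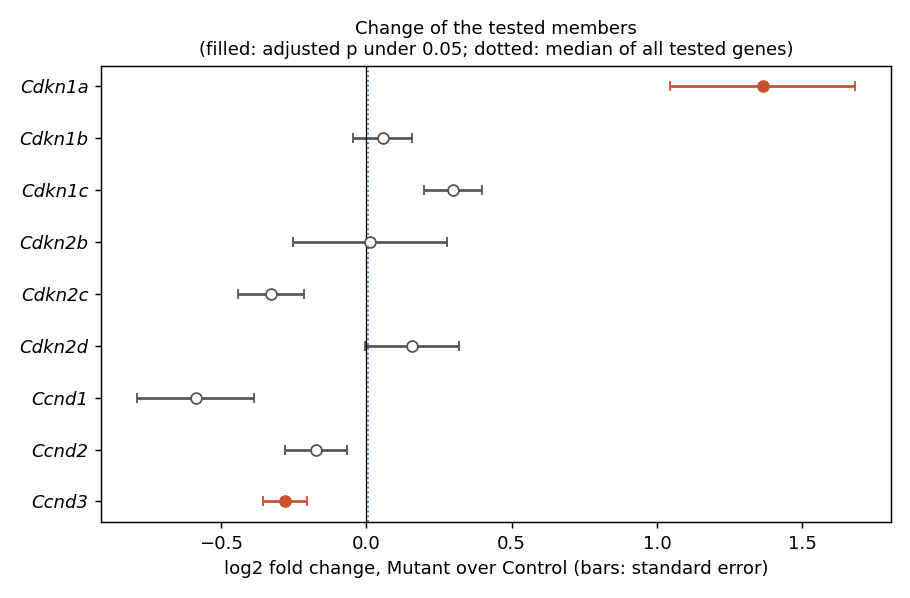
Log2 fold change of the 9 tested members, Mutant over Control, on the horizontal axis, with bars of 1 standard error. Filled red points have an adjusted p under 0.05 and the dotted line is the median of all tested genes. Cdkn1a stands apart at 1.36 and Ccnd3 lies at -0.28.

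The INK4 inhibitors were far less abundant, and 0 of the 3 that were tested reached an adjusted p under 0.05 with edgeR, with 1 (Cdkn2c) lower at an unadjusted p under 0.05, as were 15.7% of all tested genes. DESeq2 called 1, Cdkn2c, at an adjusted p of 0.0448, and called 13.1% of all tested genes higher and 10% lower. Cdkn2c encodes p18. Its level was 20.6, 17.4, 19.2 and 19.4 CPM in Control J3, J5, J6 and J7, and 12.2, 16.6, 15.5 and 16.7 CPM in Mutant K14J26, K14J28, K14J29 and K14J30. Every Mutant library lay below every Control library, and K14J26 was lowest. The log2 fold change of Cdkn2c was -0.33 ± 0.11 (SE, n = 4 and 4; adjusted p = 0.0758). Cdkn2d, encoding p19Ink4d, ranged from 11.2 to 15.9 CPM in Control and from 10.9 to 17.7 CPM in Mutant libraries (log2 fold change 0.16 ± 0.16, SE, n = 4 and 4; adjusted p = 0.514). Cdkn2b, encoding p15, ranged from 1.76 to 3.49 CPM in Control and from 2.02 to 3.19 CPM in Mutant libraries (log2 fold change 0.01 ± 0.27, SE, n = 4 and 4; adjusted p = 0.977).

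Cdkn2a encodes both p16Ink4a and p19Arf from separate first exons, and gene-level counts cannot separate them. It gave 5, 4, 7 and 2 counts in Control J3, J5, J6 and J7, and 0, 8, 1 and 7 counts in Mutant K14J26, K14J28, K14J29 and K14J30. No embryo reached the minimum of 10 counts. The 0 counts of K14J26 allow a level of up to 0.144 CPM, taken as 3 counts and covering counting error only. With no count filter Cdkn2a was tested and was not called. What size of difference could be seen at this depth was not tested.

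The D-type cyclins had log2 fold changes below 0 in all 3 genes under each scaling tried, and 1 of them, Ccnd3, passed the test. With an enamel transcript score as a covariate, Ccnd1 and Ccnd2 stood above 0, as given below. Ccnd3 lies on chr17:47505051-47599691 of GRCm38, on the plus strand (ENSMUSG00000034165). Its level was 95.4, 88.9, 94.5 and 104 CPM in Control J3, J5, J6 and J7, and 75.5, 88.3, 77.3 and 74.5 CPM in Mutant K14J26, K14J28, K14J29 and K14J30. The groups did not overlap, though K14J28 lay within 1 CPM of Control J5. The mean of Ccnd3 fell from 95.7 to 78.9 CPM (log2 fold change -0.28 ± 0.08, SE, n = 4 and 4; adjusted p = 0.038). The call was lost without Control J3, J5, J6 or J7, at adjusted p = 0.0902, 0.0599, 0.0765 and 0.103, and without Mutant K14J29 or K14J30, at 0.101 and 0.078. It was also lost with library size scaling (log2 fold change -0.37, adjusted p = 0.0546) and with no count filter (-0.28, adjusted p = 0.055), where the change was no smaller. Ccnd3 does not meet the study's call criteria, read here as an unadjusted p no higher than 0.05 with a log2 fold change of 0.5 or more in either direction. By those criteria 1 member was higher, Cdkn1a, and 1 lower, Ccnd1, beside 8.33% and 5.85% of all tested genes. Bysl overlaps Ccnd3 on the opposite strand, and the library kit does not mark strand, so reads in the shared stretch cannot be told apart. Bysl had a mean of 28 CPM and a log2 fold change of 0.10 (adjusted p = 0.519).

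The promoter windows of Ccnd3, the only other member that passed the test, come from the same source, read on the plus strand with the same motifs in capitals.
Ccnd3 upstream start, chr17:47504801-47505100: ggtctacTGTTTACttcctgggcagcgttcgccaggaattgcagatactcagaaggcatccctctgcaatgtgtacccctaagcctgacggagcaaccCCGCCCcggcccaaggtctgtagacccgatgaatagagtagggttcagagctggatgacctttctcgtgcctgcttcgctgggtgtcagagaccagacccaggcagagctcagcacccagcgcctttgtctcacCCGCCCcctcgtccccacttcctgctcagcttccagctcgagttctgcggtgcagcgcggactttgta
Ccnd3 downstream start, chr17:47593217-47593516: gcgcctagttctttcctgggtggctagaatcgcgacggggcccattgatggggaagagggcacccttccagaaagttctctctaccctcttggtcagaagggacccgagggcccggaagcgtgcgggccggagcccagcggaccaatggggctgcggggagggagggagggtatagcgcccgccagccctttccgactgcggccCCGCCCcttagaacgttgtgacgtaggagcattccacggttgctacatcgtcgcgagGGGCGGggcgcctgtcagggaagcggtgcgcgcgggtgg
Each window held 2 matches to GGGCGG, and the upstream window held 1 to TGTTTAC.

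Ccnd1, the D-type cyclin with the highest level per kilobase and a known target of mitogen and Wnt signalling, showed the widest shift of the 3 without passing the test, and was the one to meet the study's call criteria. It stood at 519, 526, 465 and 570 CPM in Control J3, J5, J6 and J7, and at 221, 473, 298 and 393 CPM in Mutant K14J26, K14J28, K14J29 and K14J30. K14J28 lay inside the Control range, and the other 3 Mutant libraries lay below it. The log2 fold change of Ccnd1 was -0.59 ± 0.20 (SE, n = 4 and 4; adjusted p = 0.0751), lower than that of all but 6.6% of tested genes. With DESeq2 the adjusted p was 0.023, and without K14J28 the log2 fold change was -0.78 (adjusted p = 0.0154). Ccnd2 ranged from 392 to 506 CPM in Control and from 332 to 437 CPM in Mutant libraries (log2 fold change -0.17 ± 0.11, SE, n = 4 and 4; adjusted p = 0.273). Genes on the opposite strand also overlap Ccnd1 (LTO1, mean 24.1 CPM) and Ccnd2 (9330179D12Rik, mean 0.86 CPM). Gm43126, overlapping Ccnd2, and Gm44732, overlapping Cdkn1c, also lie on the opposite strand and have no row in these files.

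**Figure D3:**
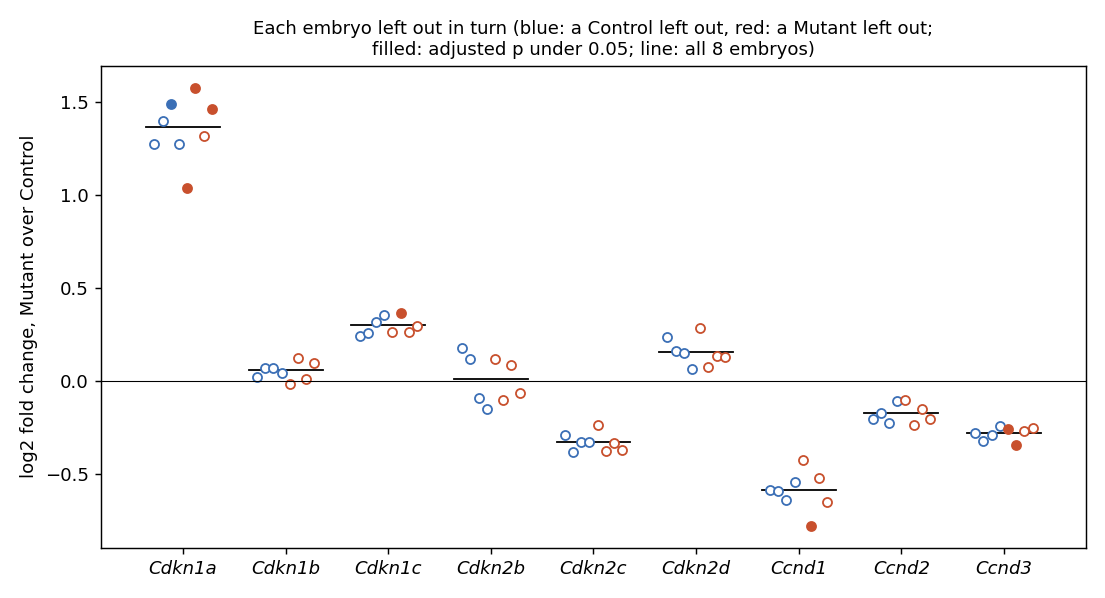
Log2 fold change of each tested member, Mutant over Control, with each embryo left out in turn. Blue points leave out a Control, red points a Mutant, filled points have an adjusted p under 0.05, and the black line is the value from all 8 embryos. Cdkn1a runs from 1.04 to 1.58 and is called in 4 of the 8 fits, and Ccnd3 runs from -0.34 to -0.24 and is called in 2.

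Levels between genes were compared per kilobase of exon (RPKM). The length was the union of all annotated exons, from 1172 bases for Cdkn2a to 9409 for Ccnd2, with 8775 for Ccnd3. A gene expressed mainly as a shorter transcript would be placed too low. In Control molars Ccnd1 led at 110 ± 9.14 RPKM (SD, n = 4). Cdkn1a at 64.0 ± 14.1 and Cdkn1c at 61.1 ± 6.75 RPKM followed and did not differ beyond their spread. Ccnd2 at 46.7 ± 5.32 and Cdkn1b at 36.3 ± 2.12 RPKM came next, then Ccnd3 at 10.9 ± 0.714, Cdkn2d at 8.68 ± 1.24 and Cdkn2c at 7.13 ± 0.491 RPKM. Cdkn2b at 1.88 ± 0.611 and Cdkn2a at 0.186 ± 0.11 RPKM were lowest. In Mutant molars the mean of Cdkn1a was highest at 165 ± 78.0 RPKM (SD, n = 4), although in K14J28 Ccnd1 at 100.5 RPKM lay above Cdkn1a at 83.1 RPKM. On the Mutant means, Cdkn1c at 75.2 ± 7.79 and Ccnd1 at 73.5 ± 23.4 RPKM did not differ beyond their spread.

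The make-up of each family is given as shares of summed RPKM. Of the summed RPKM of the 7 inhibitors, Cdkn1a made up 35.4% ± 4.7 in Control and 53.6% ± 10.2 in Mutant molars (SD, n = 4 each). Of the summed RPKM of the D-type cyclins, Ccnd1 made up 65.7% ± 0.866 in Control and 58.4% ± 5.47 in Mutant molars. The ratio of summed inhibitors to summed D-type cyclins was 0.968, 1.09, 1.32 and 0.931 in Control J3, J5, J6 and J7, and 4.42, 1.27, 2.87 and 1.90 in Mutant K14J26, K14J28, K14J29 and K14J30. K14J28 fell inside the Control range, and the other 3 Mutant libraries stood above it. No test was made of these sums, since the members were chosen with earlier results known.

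Cell type markers moved with the same libraries. The 7 ameloblast markers, enamel matrix and protease genes led by Amelx, summed to 838, 2119, 3423 and 711 CPM in Control J3, J5, J6 and J7, and to 114700, 3959, 26230 and 9976 CPM in Mutant K14J26, K14J28, K14J29 and K14J30. Of the 6 tested, 5 were called higher, but 1 was called without J3, J5, J7 or K14J29, and 2 with robust dispersion estimation. Across the Mutant libraries the order from K14J26 through K14J29 and K14J30 to K14J28 was the same for the ameloblast sum and for Cdkn1a, and reversed for Ccnd1. The odontoblast and dental epithelium sums held that order too, so it was not particular to the ameloblast markers. With the mean log2 CPM of 5 enamel genes as a covariate, the log2 fold change was 0.11 for Cdkn1a (adjusted p = 0.579), -0.14 for Ccnd3 (adjusted p = 0.457), 0.07 for Ccnd1 (adjusted p = 0.761) and 0.12 for Ccnd2 (adjusted p = 0.558). That score ran from 4.73 to 6.87 in Control and from 6.94 to 11.78 in Mutant libraries, so the score did not overlap between genotypes. In these samples the level of enamel transcripts and the genotype cannot be told apart.

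**Figure D4:**
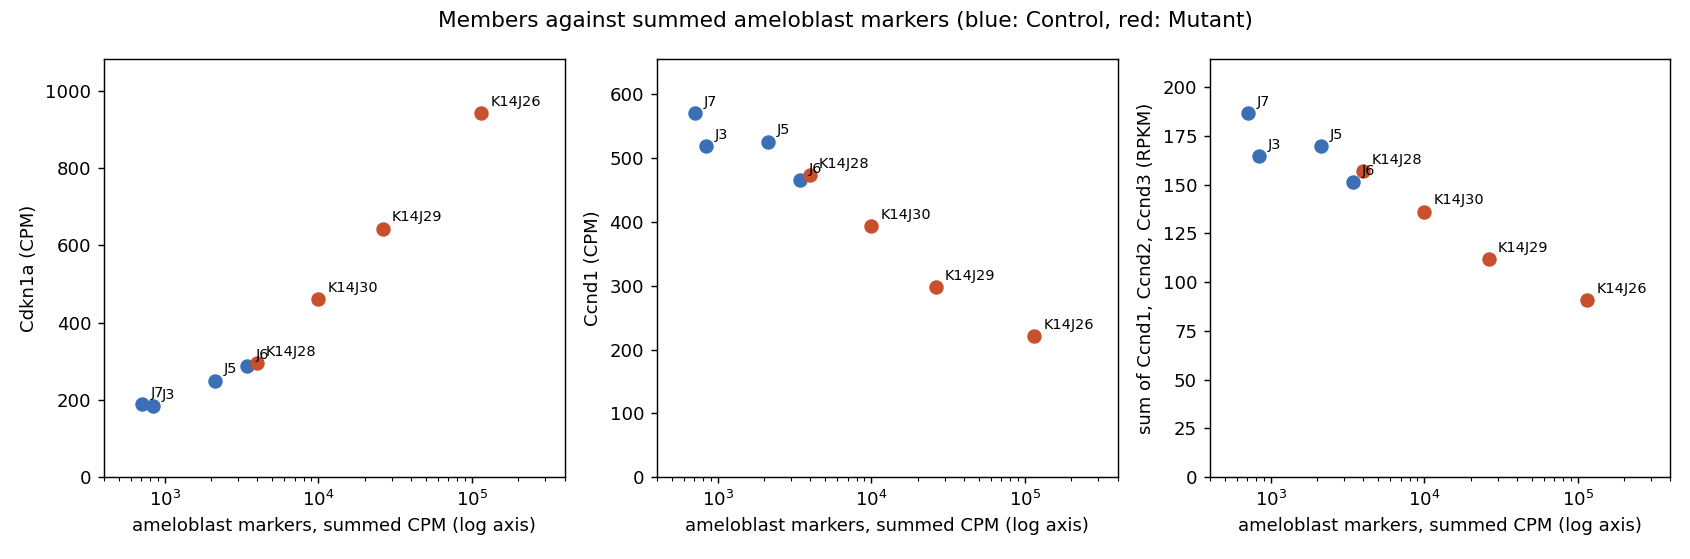
Cdkn1a and Ccnd1 in CPM, and the summed D-type cyclins in RPKM, on linear vertical axes, against the summed CPM of 7 ameloblast markers on a log axis. Each point is 1 embryo, blue for Control and red for Mutant. Mutant K14J28, at 3959 CPM of markers, lies beside Control J6, at 3423 CPM, in each panel.

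Markers of dental epithelium, led by Krt5, and of dental mesenchyme were present in every library, as the tissue label requires. Of 6 dental epithelium markers 1, Krt14, was called higher, with sums of 4657 to 5371 CPM in Control and 5486 to 8083 CPM in Mutant libraries. Of 6 tested enamel knot markers, led by Shh, 1 was called lower, Fgf9, at 25.5 CPM in Control and 8.03 CPM in Mutant molars. Of those 6, 4 stood below 0 (Fgf4, Dkk4, Fgf9 and Wnt10b) and 2 above 0 (Shh and Slit1), with a median log2 fold change of -1.46. DESeq2 called 3 lower, and edgeR called 4 lower without K14J28. Shh, at 280 CPM in Control and 362 CPM in Mutant molars (log2 fold change 0.37, adjusted p = 0.104), made up most of the summed level of 269.8 to 377 CPM in Control and 278 to 432 CPM in Mutant libraries. Of 4 osteoblast markers, led by Alpl, 2 were called higher. Without J3, J7 or K14J29 these 3 lists held 0 calls. Of 5 odontoblast markers 4 were called higher, with sums of 4506 to 8442 CPM in Control and 7810 to 24160 CPM in Mutant libraries, and Col1a1 the most abundant. Of 6 dental mesenchyme markers 5 were called lower, with sums of 209.6 to 253 CPM in Control and 162 to 185 CPM in Mutant libraries, and Barx1 the most abundant. Without J3, J5, J7 or K14J29, 0 odontoblast markers were called, and 2 without K14J30. The mesenchyme markers called lower were then 1, 2, 1 and 0, and 3 without J6. Oral keratinocyte markers, led by Krt13, summed to 683 CPM in Mutant K14J28 and to 19.8 to 141 CPM in the other libraries. Of the 4 macrophage markers, Csf1r at 92.8 CPM and Cd68 at 42.3 CPM were highest in K14J28, whereas Adgre1 at 4.79 CPM lay inside the Control range and C1qa at 7.95 CPM lay below it. Their sum was 148 CPM in K14J28 and 50.0 to 81.4 CPM in the others, and with the markers divided it is not read as that cell type. The part of the keratinocyte transcripts in the values of K14J28 was not tested. Skeletal muscle markers, led by Acta1, summed to 346 CPM in Control J6 and 161 CPM in J7, against 3.16 and 9.77 CPM in J3 and J5 and 3.17 to 14.2 CPM in Mutant libraries. With the skeletal muscle score as a covariate the calls were lost, at a log2 fold change of 1.33 for Cdkn1a (adjusted p = 0.124) and -0.24 for Ccnd3 (adjusted p = 0.16). Without J6 and J7 the log2 fold change of Cdkn1a was 1.43 (adjusted p = 0.163) and that of Ccnd3 was -0.22 (adjusted p = 0.256). In that fit, 3 genes of the whole table were called higher and 4 lower. Xist, the RNA that coats the inactive X chromosome of females, was high in Mutant K14J28 and K14J29, at 1930 and 1468 CPM, and no more than 1.09 CPM elsewhere. Without those 2 libraries the log2 fold change was 1.62 for Cdkn1a (adjusted p = 0.0276) and -0.36 for Ccnd3 (adjusted p = 0.0355).

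The genes that act with the members were read in the same fit. Of 23 Rb pathway genes, all tested, 1 was higher and 1 lower at an adjusted p under 0.05, and the list median was -0.17. Those are 4.35% of the list in each direction, beside 9.52% and 6.61% of all tested genes. Rb1, encoding the retinoblastoma protein, averaged 85.4 CPM in Control and 151 CPM in Mutant molars (log2 fold change 0.82 ± 0.21, SE, n = 4 and 4; adjusted p = 0.0323). Cdk4, a catalytic partner of D-type cyclins, averaged 421 and 321 CPM (log2 fold change -0.39 ± 0.11, SE; adjusted p = 0.0436). Its relative Cdk6 was low, at 3.92 and 2.65 CPM (log2 fold change -0.56 ± 0.27, SE; adjusted p = 0.178). Neither Rb1 nor Cdk4 was called when any Control embryo or K14J29 was left out, where the count for the list was 0.

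Of 20 proliferation genes, 0 were called by edgeR, 6 were lower and 0 higher at an unadjusted p under 0.05, and DESeq2 called 4 lower. Over all tested genes, 15.7% were lower and 19.1% higher at that unadjusted p, and DESeq2 called 10% lower. All 20 had a log2 fold change below 0, and the median was -0.47, beside 0.01 over all tested genes. Mki67, which marks cycling cells, averaged 389 CPM in Control and 323 CPM in Mutant molars (log2 fold change -0.27 ± 0.29, SE, n = 4 and 4; adjusted p = 0.53). The 20 genes summed to 2789, 2535, 2377 and 2813 CPM in Control J3, J5, J6 and J7, and to 913.9, 2730, 1718 and 2270 CPM in Mutant K14J26, K14J28, K14J29 and K14J30. K14J26 was lowest and K14J28 lay inside the Control range, the same order as for Ccnd1. Without K14J28, 7 of the 20 were called, and without K14J26, 1 was called and 18 stood below 0. With the enamel score as a covariate all 20 stood above 0, and none of the scalings tried moved any of them above 0.

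**Figure D5:**
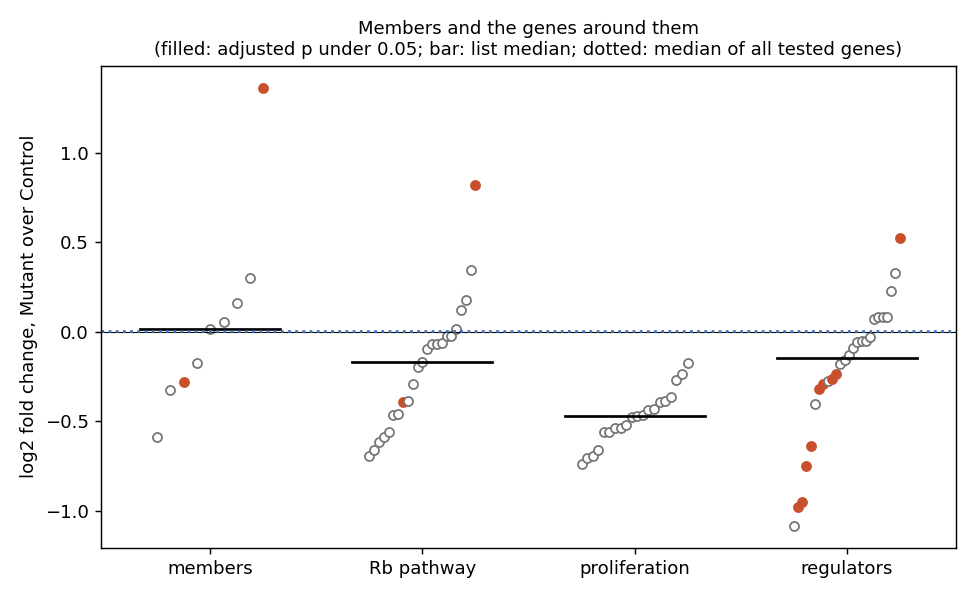
Log2 fold change of each tested gene, Mutant over Control, on the vertical axis, for the members, the Rb pathway, proliferation and regulator lists. Filled red points have an adjusted p under 0.05, black bars are list medians and the dotted line is the median of all tested genes. The proliferation genes lie from -0.74 to -0.18, with none filled, and stood above 0 only with the enamel score as a covariate or, for 2 of them, without K14J26.

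Of 26 known regulators of the members' transcription, 1 was called higher and 8 lower, with a list median of -0.15. Those are 3.85% and 30.8% of the list, beside 9.52% and 6.61% of all tested genes. This list, like the Rb pathway and proliferation lists, was chosen with earlier results of these data known. The shares of these lists are therefore not read as a result about their genes. The number called lower was 3 without J3, 4 without J5, 2 without J7, 2 without K14J29 and 5 without K14J30. It was 2 with the muscle score as a covariate, 1 with the enamel score and 0 without J6 and J7 together. Over all tested genes, 1133 were called lower in the reported fit. Without J3, J5, J7, K14J29 or K14J30 that number was 287, 388, 236, 170 and 824. Foxo1, a forkhead factor that can activate Cdkn1b, averaged 133 CPM in Control and 190 CPM in Mutant molars (log2 fold change 0.52 ± 0.11, SE, n = 4 and 4; adjusted p = 0.0175). The number of regulators called higher was 0 without J5, J7 or K14J29, with the muscle score as a covariate, or without J6 and J7 together. It was 2 without K14J28. Among the regulators called lower, Mycn, a driver of proliferation, had a log2 fold change of -0.98 ± 0.12 (SE; adjusted p = 0.00517). The Wnt effectors Lef1 and Tcf7 followed at -0.95 ± 0.15 (adjusted p = 0.0104) and -0.75 ± 0.14 (adjusted p = 0.0151). Cbx2 stood at -0.64 ± 0.14 (adjusted p = 0.0216), Rnf2 at -0.32 ± 0.07 (adjusted p = 0.0193) and Bmi1 at -0.27 ± 0.08 (adjusted p = 0.0427), and each encodes a Polycomb protein. The other Polycomb genes of the list, Cbx7, Cbx8, Ring1, Ezh2, Eed and Suz12, ran from -0.28 to 0.08 and were not called. For Trp53, which activates Cdkn1a, the log2 fold change was -0.18 (adjusted p = 0.377) and for its target Mdm2 it was 0.08 (adjusted p = 0.614), both chosen for mention after their values were seen. For Ccng1, another p53 target, it was 0.68 (adjusted p = 0.00485), and p53 activity was not tested.

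Of 30 tested genes among the other cyclins and CDKs, 2 were called higher and 1 lower, beside 9.52% and 6.61% of all tested genes. Cdk18 averaged 66.9 and 155 CPM in Control and Mutant molars (log2 fold change 1.21 ± 0.27, SE; adjusted p = 0.0221), and Ccng1, a p53 target, 72.8 and 117 CPM (log2 fold change 0.68 ± 0.06, SE; adjusted p = 0.00485). The one lower was Cdk4, described above.

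Genes next to the members showed no common direction. Within 100 kb of a member, 47 genes were tested (Cdkn2b, beside Cdkn2a, among them), of which 5 were called higher and 5 lower. Among all tested genes, 9.52% were called higher and 6.61% lower, so these counts are not read as a result about the neighbours. Beside Cdkn1a, Stk38 stood at a log2 fold change of 0.24 (adjusted p = 0.0358) and Rab44 one of 1.08 (adjusted p = 0.0458). Beside Ccnd3, Med20 stood at 0.31 (adjusted p = 0.029) and the pseudogene Kpna2-ps was lower (adjusted p = 0.0311). Fgf3, a growth factor gene of the tooth germ beside Ccnd1, stood at -1.28 (adjusted p = 0.0351), and Phlda2, an imprinted gene beside Cdkn1c, at -1.41 (adjusted p = 0.0427). Beside Cdkn2d, S1pr5 at 1.79 (adjusted p = 0.018) and Ap1m2 at 0.28 (adjusted p = 0.025) were higher, and Slc44a2 at -0.25 (adjusted p = 0.0237) was lower.

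Among 11907 other tested genes with a mean of at least 5 CPM, the patterns most like Cdkn1a over the 8 embryos were those of Stac3 (Pearson r of log2 CPM = 0.999) and Kcnn4 (r = 0.999). For Ccnd3 they were Cpxm1 (r = 0.982) and Lrig3 (r = 0.981). These values describe 8 libraries that share 2 genotypes, and carry no test.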

How the data were processed

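Libraries from the 8 molar samples were made with a kit that does not mark strand and read single-end. The authors used STAR for alignment to GRCm38 and deposited whole-number counts per Ensembl gene, made with featureCounts per the labels and GenomicRanges per the study's methods. From these counts, a gene was kept if 2 or more embryos of a group reached 10 counts. The 17129 genes kept were fitted with edgeR 4.0.16 in R 4.3.3 (TMM factors, quasi-likelihood test, Benjamini-Hochberg adjustment). Standard errors were the absolute log2 fold change over the square root of F. The TMM factor was 0.843 for K14J26 and 0.969 to 1.04 for the others. RPKM used GENCODE exon lengths. Every pair of replicates differed beyond sampling noise. Alternatives were other scalings and filters, DESeq2 1.42.0, robust estimation, the study's call criteria (its fold change of 0.5 read as log2), covariates and left-out embryos. From each list, genes with adjusted p under 0.05 were named, up to 6 by size of change, and Cdk4, Cdk6, Rb1, Mki67 and Bmi1 in any case. A neighbouring gene that met the rule is not reported here. Members and lists were chosen with earlier results of these data known. The fit was tested on simulated data.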

Additional observations from a re-analysis of the deposited data

How the results depend on the processing

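For the members, 140 of 180 alternative values kept their direction and their side of the threshold, 18 were no longer past it, 5 newly passed it and 17 changed sign. The log2 fold changes that changed sign follow. Cdkn1b was -0.055 with library size scaling, -0.268 with the enamel covariate and -0.014 to 0.124 with 1 embryo left out. Cdkn2b was -0.027 with upper-quartile scaling, -0.071 with library size, -0.035 with the Xist covariate, -0.196 with the muscle covariate, -0.343 without J6 and J7, -0.037 without K14J28 and K14J29, and -0.149 to 0.178 with 1 embryo left out. Cdkn2d was -0.007 with the Xist covariate and -0.009 without K14J28 and K14J29. With the enamel covariate Ccnd1 was 0.07 and Ccnd2 0.12.

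The members called higher and lower were 2 and 3 with DESeq2, beside 13.1% and 10% of all genes. Both were 0 with the enamel covariate, where Cdkn1a was 0.105 and Ccnd3 -0.138. Both were also 0 with the muscle covariate (Cdkn1a 1.33, Ccnd3 -0.243) and without J6 and J7 (1.43 and -0.224). The number called lower was 0 with library size scaling and with no count filter. Over all genes, calls were 855 higher and 1060 lower with library size scaling, where 44.6% were higher, and 48.5% with upper-quartile scaling, against 59% in the reported fit. DESeq2 called 2244 higher and 1718 lower. Calls lower were 610 with the Xist covariate and 741 without K14J28 and K14J29. The enamel covariate left 186 higher and 112 lower, the muscle covariate 46 and 46, and the fit without J6 and J7 3 and 4, with fewer samples. Rb pathway calls were 1 with library size scaling and with no count filter, 4 with DESeq2, with the study's criteria and without K14J28 and K14J29, and 0 with the enamel or muscle covariate or without J6 and J7. Proliferation calls were 4 with DESeq2 and 4 with the study's criteria. With 1 embryo left out, members called ranged from 0 to 2 higher and 0 to 2 lower, all genes from 250 to 2479 higher and 170 to 1843 lower, Rb pathway genes from 0 to 9 and proliferation genes from 0 to 7. The cause was not tested. Low counts limit Cdkn2a, which had at most 8 in any library.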
